A study of Mus musculus with 2 samples.

Results

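The genes described here encode cytosolic aminoacyl-tRNA synthetases, the enzymes that join each amino acid to its transfer RNA before translation. They were Aars, Eprs, Gars, Hars, Nars, Sars, Tars, Vars, Wars and Yars, taken with every probe set that the annotation of the MG_U74Av2 array maps to exactly 1 of these genes or to its renamed symbol ending in 1. This gave 13 of the 12488 probe sets and 10 of the 8251 named genes. Wars had 3 probe sets, Yars had 2 and each of the other genes had 1. The samples were 3T3 cells, immortal fibroblasts derived from mouse embryos, which in routine culture spread on a surface. Cells of the fibronectin group were plated for 30 min on fibronectin at 10 µg/ml, a matrix glycoprotein to which integrin receptors attach. Cells of the suspension group were held unattached, for a time the labels do not state, and both groups were in serum-free DMEM. The labels give no genetic change in either group, and each group had 1 array, so the ratios carry no p-value and were not repeated, although the series text speaks of 2 replicates.

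A synthetase, as a rule, recognises a single amino acid and its transfer RNAs, uses ATP to activate the amino acid, and belongs to class I or class II by the fold of its catalytic domain. Several of the enzymes, among them the glutamyl-prolyl enzyme Eprs, are held together in a multisynthetase complex, while others are free in the cytosol. Lack of an amino acid leaves transfer RNA uncharged, which activates the kinase GCN2 (gene Eif2ak4), and phosphorylation of eIF2 then favours translation of the transcription factor ATF4. ATF4, paired with C/EBP proteins, binds a composite element in many genes of amino acid supply, and many synthetase genes are among its known targets.

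RefSeq promoters (GRCm38.p6) were at hand for 6 of the 10 genes, namely Aars, Eprs, Gars, Sars, Tars and Yars, and were searched over the 250 bases before the gene's start. The letters searched were TGATGNAA, the core of the element that ATF4 binds with C/EBP proteins, on both strands. Aars, Gars and Tars held them, each in the reverse orientation, and Eprs, Sars and Yars did not. Of all 32851 promoters of the same length, 3.45% held them. In Aars the match lay 112 to 105 bases before the start, in Gars 30 to 23 bases and in Tars 15 to 8 bases. The GC content of these windows was 48.8% in Aars, 62.4% in Gars and 57.6% in Tars, against a median of 52.4% over all promoters. The 3 sequences with a match are printed because these genes also had nearly equal signal ratios between the arrays as reported. That of Sars is an example without a match, chosen because its ratio had the opposite sign. Yars also lacked a match, yet its log2 ratio of 0.34 was close to those of the matched genes, from 0.37 to 0.38. The near-equality depended on the scaling. With quantile normalization the log2 ratio was 0.43 for Aars, 0.36 for Tars and 0.26 for Gars, beside 0.42 for Yars. With loess these were 0.43, 0.36 and 0.29, beside 0.43 for Yars. All run 5′ to 3′ along the gene's strand and end at the base before the start, with the match in capitals.
Aars, chr8:111033592-111033841, plus strand: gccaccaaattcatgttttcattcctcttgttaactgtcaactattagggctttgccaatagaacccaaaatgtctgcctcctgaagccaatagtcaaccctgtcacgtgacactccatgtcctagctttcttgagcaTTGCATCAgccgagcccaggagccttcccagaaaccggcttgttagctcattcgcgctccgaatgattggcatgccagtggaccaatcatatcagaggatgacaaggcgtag
Gars, chr6:55037751-55038000, plus strand: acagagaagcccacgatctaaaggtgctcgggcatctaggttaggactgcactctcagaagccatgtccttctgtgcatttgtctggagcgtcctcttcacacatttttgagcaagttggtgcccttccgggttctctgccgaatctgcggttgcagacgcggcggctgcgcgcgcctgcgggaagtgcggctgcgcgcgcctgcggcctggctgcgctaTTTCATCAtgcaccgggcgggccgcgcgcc
Tars, chr15:11399659-11399908, minus strand: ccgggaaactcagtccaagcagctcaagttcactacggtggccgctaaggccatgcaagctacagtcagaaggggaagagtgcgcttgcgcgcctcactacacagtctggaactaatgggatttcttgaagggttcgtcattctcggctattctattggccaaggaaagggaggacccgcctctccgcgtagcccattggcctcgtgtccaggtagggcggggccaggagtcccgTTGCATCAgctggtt
Sars, chr3:108445260-108445509, minus strand, without a match: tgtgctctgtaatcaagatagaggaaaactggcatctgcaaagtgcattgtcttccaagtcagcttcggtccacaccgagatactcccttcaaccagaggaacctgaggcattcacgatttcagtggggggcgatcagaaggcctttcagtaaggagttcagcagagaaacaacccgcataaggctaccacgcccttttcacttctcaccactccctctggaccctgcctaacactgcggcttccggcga
A match describes letters only, shows no binding in these cells, and was set beside the ratios of 6 genes without a test.

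Between these 2 arrays the synthetase genes differed by small amounts and in both directions. Aars, Gars, Tars, Yars, Vars and Hars had higher signals on fibronectin, with log2 ratios from 0.20 to 0.38, though all 6 were below 0 when hybridisation spikes set the scale. Eprs, Sars, Wars and Nars had lower signals on fibronectin, with log2 ratios from -0.32 to -0.69. A difference of 1.5-fold or more was reached by 0 of the 10 genes upward and by 1, Nars, downward, and 0 reached 2-fold. Among all 6385 measured genes, 15.9% were higher by 1.5-fold or more and 22.6% lower, and at 2-fold these shares were 5.81% and 9.27%. Of the 10 genes 6 had a ratio above 0 and 4 below, beside 45% and 55% of all measured genes. Among genes above the level of the negative controls in both arrays, where 7 of the 10 lie, these shares were 57.9% and 42.1%. Of those 7, Aars, Gars, Tars, Vars and Yars had a ratio above 0, and Nars and Sars below. The median log2 ratio of the 10 genes was 0.23, beside -0.09 over all measured genes and 0.09 over genes above the negative control level in both arrays. Of these brighter genes, 16.9% were higher by 1.5-fold or more and 7.29% lower. The median absolute log2 ratio was 0.37 for the 10 genes and 0.46 over all measured genes, but 0.34 over genes above the negative control level in both arrays.

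The values behind these ratios are linear MAS5 intensities of probe sets, with both arrays brought to a common 2% trimmed mean. A signal counted as measured at or above a floor of 490, the mean of both arrays' 40th percentiles, and a gene counted as measured if either array reached the floor. All 10 genes reached it in both arrays. The 95th percentile of 34 negative control probe sets was 1874 on fibronectin and 1403 in suspension, and 7 of the 10 genes lay above it in both arrays. The exceptions were Eprs and Hars in both arrays, and Wars on fibronectin. The highest negative control was 2528 on fibronectin and 1451 in suspension. The fibronectin signals of Nars, Sars and Yars, though above the 95th percentile, lay below 2528. The only error that 1 array per group allows is the disagreement between probe sets of 1 gene. It gave an SD of 0.59 for a single log2 ratio, over 672 genes with several probe sets above the floor in both arrays, and 0.40 over 197 genes above the negative control level. This error is technical, comes from the same pair of arrays, and holds nothing of the spread between cultures. Of the 10 genes, 1, Nars, had an absolute log2 ratio above 0.59.

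Measures of the arrays as a whole also differed between the conditions. The ratio of the 3′ to the 5′ control probe set, which is higher where RNA is broken or labelling stops early, was 1.19 on fibronectin and 1.79 in suspension for beta-actin. For Gapdh it was 0.84 on fibronectin and 1.47 in suspension. Of 32 instrument settings filled in for both arrays, 4 differed, namely chip lot, operator, fluidics module and scan day. With a single array per condition, these and the condition cannot be told apart. Of 10 fibroblast markers, 8 lay above the negative control level on fibronectin and 9 in suspension, with summed signals of 240016 on fibronectin and 167107 in suspension. The exceptions were Thy1 in both arrays and Vim on fibronectin. Col1a1, Col1a2 and S100a4 had the largest signals in both arrays. Of 9 measured fibroblast markers, 7 had a log2 ratio above 0 and 2 below, among the latter Vim, 2.07-fold lower on fibronectin. Of 28 markers of blood, epithelial, endothelial, neural, muscle and fat cells, 1 lay above the negative control level on fibronectin, Cd14, and 5 in suspension, Cd14, Csf1r, Cdh1, Ckm and Myod1. These counts rest on unequal levels, 1874 on fibronectin and 1403 in suspension, and the fibronectin signals of Csf1r (1443) and Myog (1448) lay between these. The part of the 28 markers in the ratios was not tested. In bulk RNA, less RNA per cell and fewer cells with a transcript cannot be told apart.

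**Figure D1:**
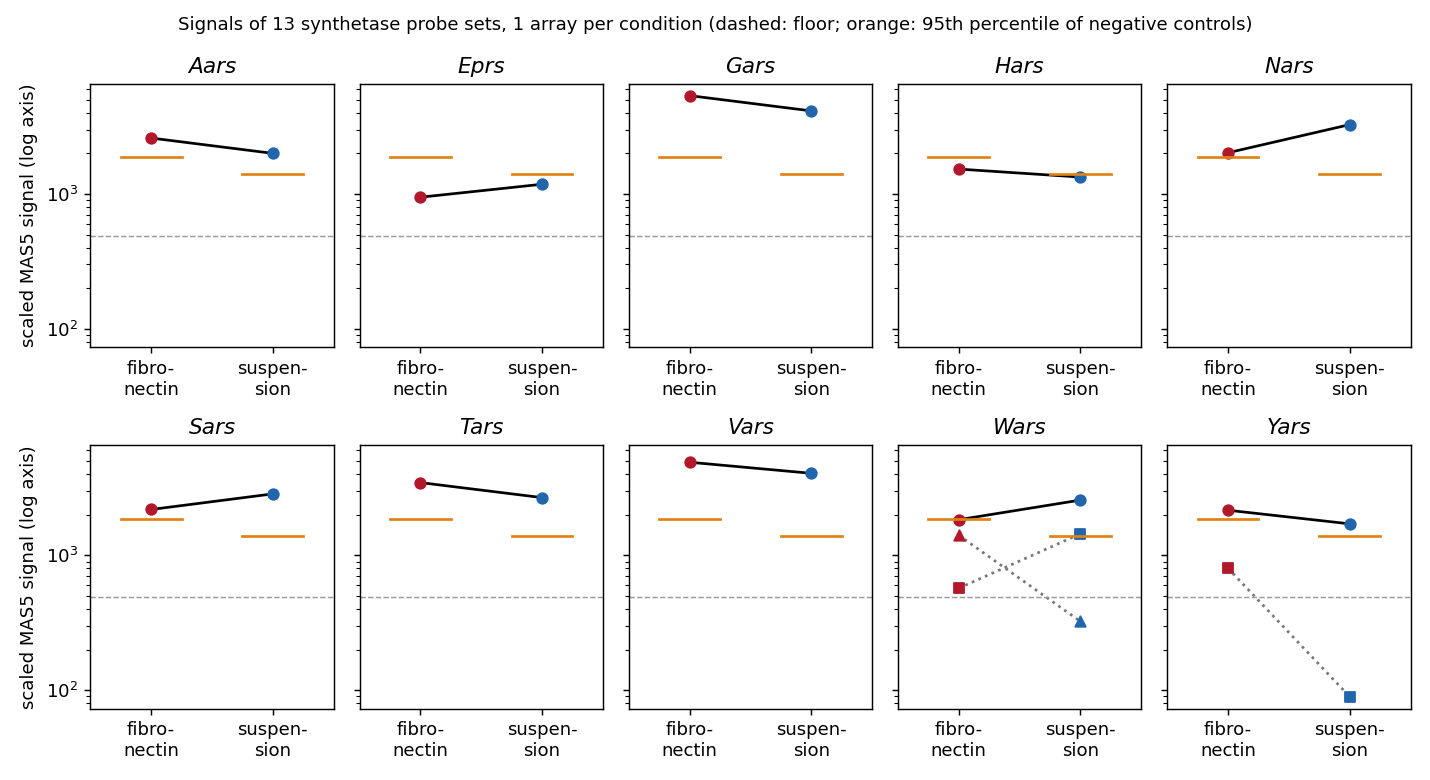
Scaled MAS5 signal (log axis) of each of the 13 probe sets on fibronectin (red, left) and in suspension (blue, right), 1 array per condition and 1 panel per gene. Solid lines join the probe set used for the gene, dotted lines the others, the dashed line is the floor of 490, and the orange bars are the 95th percentiles of the negative controls (1874 on fibronectin, 1403 in suspension); Gars, Vars and Tars lie well above these bars in both arrays, while Eprs and Hars lie below them.

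Among the class II enzymes, the signal of Aars, which charges alanine transfer RNA, was 2598 on fibronectin and 2000 in suspension, 1.30-fold higher on fibronectin. Gars, the glycyl enzyme, whose gene serves both the cytosol and the mitochondria, had a signal of 5361 on fibronectin and 4131 in suspension, also 1.30-fold higher. The threonyl enzyme gene Tars had a signal of 3464 on fibronectin and 2681 in suspension, 1.29-fold higher. The log2 ratios of these genes, the ones whose promoters held the searched letters, were thus 0.38 for Aars, 0.38 for Gars and 0.37 for Tars. Each of these ratios was smaller than the SD of 0.40 between probe sets of 1 gene at this brightness, so none stands beyond the technical spread.

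Hars encodes the histidyl enzyme, known in human disease as the autoantigen Jo-1. Its signal was 1530 on fibronectin and 1334 in suspension, a log2 ratio of 0.20. Both signals lay below the negative control level of their array, at 0.82 times that level on fibronectin and 0.95 times in suspension. Sars, the seryl enzyme, which also charges the transfer RNA for selenocysteine, had a signal of 2188 on fibronectin and 2857 in suspension. It was 1.31-fold lower on fibronectin, a log2 ratio of -0.38. Nars, the asparaginyl enzyme, had the largest absolute ratio of the 10 genes when each was read from its brightest probe set. Its signal was 2021 on fibronectin and 3266 in suspension, so that it was 1.62-fold lower on fibronectin with a log2 ratio of -0.69. The fibronectin signal of Nars was 1.08 times the negative control level of that array, and the suspension signal 2.33 times that of its own. On fibronectin it lay below the highest negative control, 2528, and so within the range of these controls. The 6 class II genes had a median log2 ratio of 0.28, with 4 above 0 and 2 below.

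Among the class I enzymes, Vars charges valine transfer RNA and is found bound to elongation factor 1. Its signal was 4904 on fibronectin and 4059 in suspension, 1.21-fold higher on fibronectin with a log2 ratio of 0.27. Elongation factor genes, the mitochondrial Tufm, Tsfm and Gfm1 among them, showed the other sign as reported. With scaling to the spikes, Vars too was below 0, at -0.20. As reported, 0 of 7 measured elongation factor genes had a log2 ratio above 0, and their median was -0.26. Of the 7, 1 passed 1.5-fold downward, the mitochondrial factor Gfm1, but its signals of 529 on fibronectin and 920 in suspension both lay below the negative control level. The count past 1.5-fold downward was 0 with quantile normalization, loess or either higher floor (60th percentile or negative controls), and 5 with scaling to the spikes. Of elongation factor 1 itself, Eef1a1, which brings charged transfer RNA to the ribosome, had a log2 ratio of -0.26 and Eef1d of -0.15. Eef1b2 was 1.33-fold lower in the probe set used and had a log2 ratio of 0.19 in another, with all 4 signals within the range of the negative controls.

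Yars, the tyrosyl enzyme, whose fragments are known to act as cytokines, had 2 probe sets of the same sign. The brighter one had a signal of 2162 on fibronectin and 1713 in suspension, 1.26-fold higher on fibronectin, above the negative control level in both arrays. The other had a signal of 802 on fibronectin and 89.7 in suspension, which is below the floor and gives at least 1.64-fold higher. As 802 lay within the range of the negative controls, this bound holds against the floor and not against background.

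Wars, the tryptophanyl enzyme, which interferon-gamma induces in many cells, was the member whose probe sets disagreed. The brightest had a signal of 1838 on fibronectin and 2571 in suspension, 1.40-fold lower on fibronectin. The probe set whose identifier holds _f_ had a signal of 571 on fibronectin and 1446 in suspension, 2.53-fold lower. The _s_ probe set went the other way. Its signal was 1409 on fibronectin and 324 in suspension, at least 2.88-fold higher on fibronectin. On fibronectin all 3 signals lay below the negative control level of 1874. The suffixes _f_ and _s_ mark probe sets that can also detect related sequences or several transcripts, so these values may include other RNAs. The direction of Wars was therefore not settled. The mean log2 ratio of its 3 probe sets was -0.10 with the _s_ probe set at its bound, so this mean is a lower bound and its sign is open.

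Eprs is the member with catalytic domains of both classes, which charge glutamate and proline transfer RNA, and the 1 of the 10 that is part of the multisynthetase complex. Its signal was 946 on fibronectin and 1181 in suspension, a log2 ratio of -0.32, and both signals lay below the negative control level of their array. Of the scaffold proteins of that complex, Aimp1 had a log2 ratio of -0.10 and Aimp2 of -0.07, both with signals above the negative control level in both arrays. Its enzymes outside the 10 genes pointed both ways. Qars, the glutaminyl enzyme, had a log2 ratio of 0.28, the isoleucyl enzyme gene Iars of 0.26, the leucyl gene Lars of 0.07 and the methionyl gene Mars1 of 0.04. Rars, the arginyl enzyme, was 1.68-fold lower on fibronectin, with a signal of 2871 on fibronectin and 4826 in suspension, and Kars, the lysyl enzyme, had 999 on fibronectin, below the negative control level, and 1572 in suspension.

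**Figure D2:**
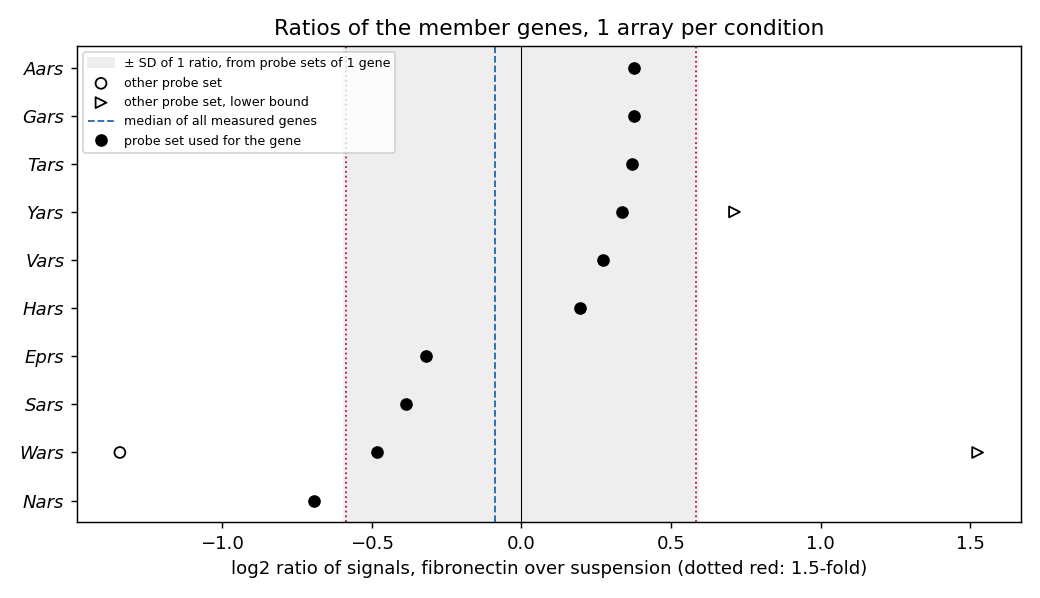
Log2 ratio of signals, fibronectin over suspension, of the 10 synthetase genes, ordered by the probe set used (filled points), with other probe sets of Wars and Yars as open circles (measured) or triangles (lower bounds). The grey band spans ± 0.59, the SD of 1 ratio from probe sets of 1 gene, the red dotted lines mark 1.5-fold and the blue dashed line the median of all measured genes, -0.09; Nars alone among the filled points lies outside the band, and the 6 points above 0 fall below it when hybridisation spikes set the scale.

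The distance between members was compared with the same error, since it does not depend on how the arrays are scaled as a whole. From Nars to Aars the log2 ratios spanned 1.07. The difference between 2 probe sets of 1 gene had an SD of 0.84 above the floor and 0.56 above the negative control level. The ratios of the 10 genes had an SD of 0.42, beside 0.40 for the error of 1 ratio above the negative control level, so the spread among the synthetase genes was of the size that probe sets of a single gene show. Among all genes above the negative control level in both arrays, the share past 1.5-fold was 16.9% upward and 7.29% downward, and the median log2 ratio was 0.09.

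Of the other 10 cytosolic synthetase genes, 9 had a probe set and 7 were measured. Of these 7, 1 passed 1.5-fold upward and 2 downward, and their median log2 ratio was 0.07. The 1 upward was Farsa, the alpha subunit of the phenylalanyl enzyme, with signals of 2451 on fibronectin and 1269 in suspension. The suspension signal lay below the negative control level of 1403, and with the floor at these controls, or with scaling to the spikes, 0 of these genes passed 1.5-fold upward. Farsb, the beta subunit, and Cars, the cysteinyl enzyme gene, were below the floor in both arrays. Over all 17 measured cytosolic synthetase genes, the 10 included, 11 had a log2 ratio above 0 and 6 below, 0 passed 2-fold, and the median was 0.20. Mitochondrial synthetases, most of which have genes of their own, had 4 measured members of 17 listed, 1 above 0 and 3 below, and their direction was not settled. The median log2 ratio was -0.43 as reported, 0.17 and 0.03 with the higher floors at the negative controls and the 60th percentile, and 0.11 without suffixed probe sets. Of the 4 genes, 1, Iars2, lay above the negative control level in both arrays. Iars2 was 1.46-fold higher. The 3 probe sets of Sars2, the mitochondrial seryl enzyme, differed in sign and had signals within the range of the negative controls.

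Genes of the amino acid response to ATF4 were read beside the synthetases, leaving the synthetases out of that list. The list had 26 measured genes, 15 with a log2 ratio above 0 and 11 below, and its median log2 ratio was 0.32. Of the 26, 8 passed 1.5-fold upward on fibronectin and 2 downward. Over all measured genes these shares were 15.9% upward and 22.6% downward. The 2 downward were Slc7a11, with both signals below the negative control level, and Atf5, 1.56-fold lower with its fibronectin signal below that level. With scaling to the spikes 4 genes of the list passed 1.5-fold upward and 8 downward with a median of -0.15, and with median scaling 13 upward and 1 downward. Atf4 itself had a log2 ratio of 0.47, with a signal of 20414 on fibronectin and 14781 in suspension. Asns, the asparagine synthetase gene, had a log2 ratio of 0.47, while Nars, which uses the same amino acid, was 1.62-fold lower. A second Asns probe set, with _f_ in its identifier, was at least 1.72-fold higher on fibronectin. Its signals of 842 on fibronectin and 142 in suspension both lay below the negative control level, so this bound holds against the floor and not against background. The promoter of Asns also held the letters TGATGNAA, 23 to 16 bases before its start and in the forward orientation, and those of Atf4, Ddit3 and Mthfd2 did not. The stress factor gene Ddit3 (CHOP) had a signal of 2490 on fibronectin and 1196 in suspension, and the neutral amino acid transporter gene Slc1a4 had 3109 on fibronectin and 1246 in suspension. The folate enzyme gene Mthfd2 had 3192 on fibronectin and 353 in suspension, and the growth factor gene Vegfa had 2754 on fibronectin and 388 in suspension. On fibronectin these 4 genes lay above the negative control level, while in suspension all 4 lay below it, so the size of their folds is uncertain.

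A further list held genes of eIF2, its kinases, its phosphatase subunits and its exchange factor eIF2B. Of its 12 measured genes, 1 passed 1.5-fold upward and 0 downward, and their median log2 ratio was -0.09. The phosphatase subunit genes Ppp1r15b and Ppp1r15a had opposite signs, 1.80-fold higher and 1.47-fold lower on fibronectin. The median of this list was above 0 with quantile normalization (0.06), loess (0.07) and median scaling (0.12). The kinase gene Eif2ak3 (PERK) had signals of 826 on fibronectin and 1199 in suspension, both within the range of the negative controls. Genes that mature or export transfer RNA showed no settled direction. Their median log2 ratio was -0.12 over 13 measured members, but 0.10 with quantile normalization and with loess, 0.09 with median scaling, 0.05 without suffixed probe sets and 0.04 with the probe set of smallest ratio. The counts past 1.5-fold were 2 upward and 2 downward as reported, 0 and 8 with scaling to the spikes, and 0 and 0 with the floor at the negative controls, which leaves fewer genes measured. Xpot, the nuclear exporter of transfer RNA, had signals of 2044 on fibronectin and 1238 in suspension, and another of its probe sets had the opposite sign. Trnt1, which adds the CCA end that synthetases charge, had 1288 on fibronectin and 1985 in suspension, and Rpp14, a subunit of ribonuclease P, had 441 on fibronectin and 1534 in suspension. On fibronectin the signals of Trnt1 and Rpp14 lay below the negative control level.

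**Figure D3:**
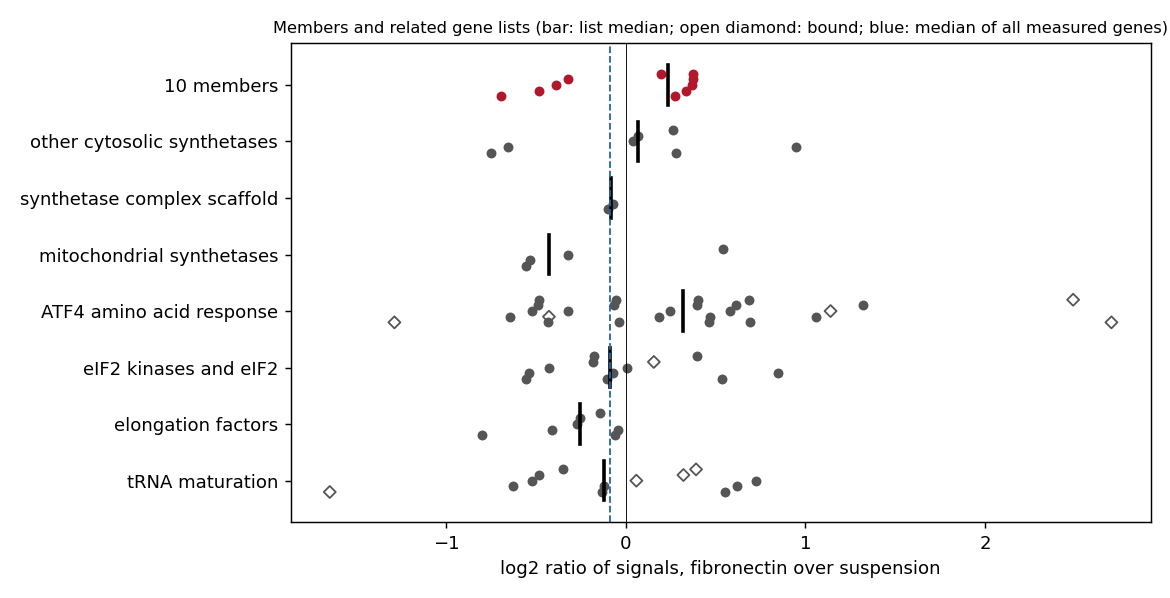
Log2 ratio of signals, fibronectin over suspension, of each measured gene in the 10 synthetases (red) and in the 7 related gene lists (grey), with open diamonds for bounds, black bars for list medians and the blue dashed line at the median of all measured genes, -0.09. The 10 synthetases lie between -0.69 and 0.38, inside the span of the ATF4 list, which runs from -1.29 to 2.70. Both ends of that span, Slc7a11 and Mthfd2, are bounds. The lowest value of that list that is not a bound is -0.65 for Atf5, above that of Nars.

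The direction of 6 members depended on how the arrays were scaled. When 9 spiked-in hybridisation controls set the scale instead, the median log2 ratio was -0.51 over all measured genes and -0.24 over the 10 genes. Aars, Gars, Tars, Yars, Vars and Hars were then slightly below 0, from -0.10 for Aars to -0.28 for Hars, and 4 genes were at least 1.5-fold lower. Relative to the median of all measured genes, the same 6 genes stayed above it and Nars, Sars and Eprs below it under every alternative in which they were measured. Wars was also below it, but by a difference of only -0.01 with the mean of probe sets, which takes its _s_ probe set at the bound. The side of Wars is therefore not settled. Lower floors, and the choice of probe set for genes with 1 probe set, could not alter a member's own ratio. Nars had log2 ratios from -1.17 to -0.49 over the 12 alternatives and was at least 1.5-fold lower in 11 of them. Under median scaling, where all genes had a median log2 ratio of 0.11, it was -0.49, and Aars, Gars and Tars reached 0.58, just short of 1.5-fold.

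**Figure D4:**
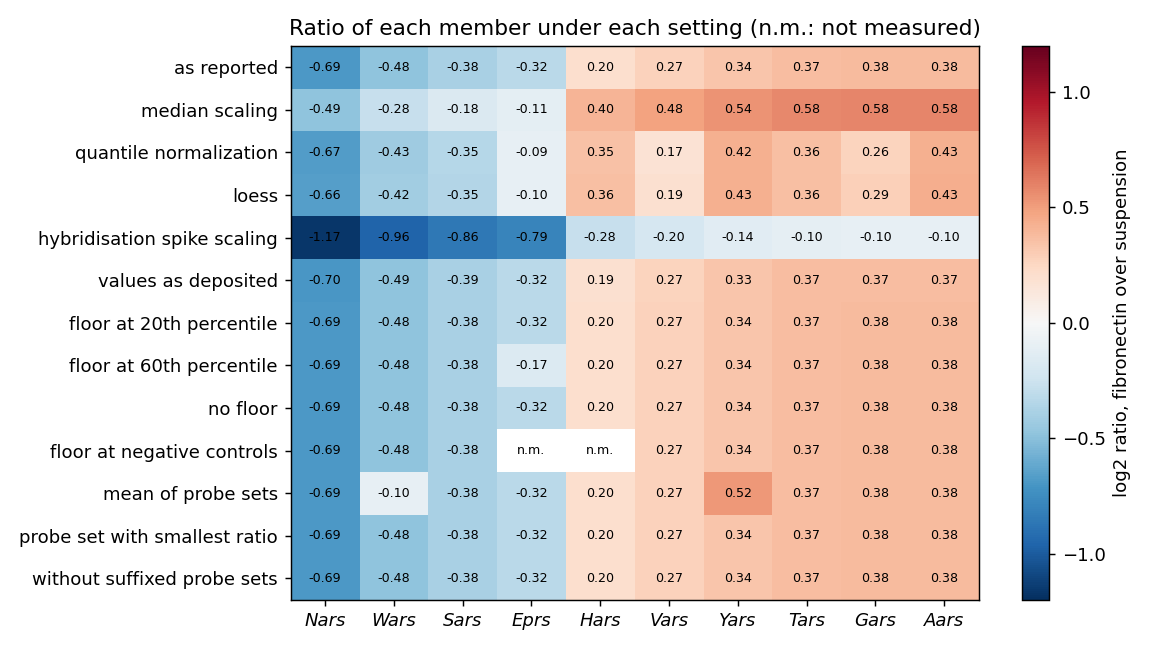
Log2 ratio, fibronectin over suspension, of each of the 10 synthetase genes (columns) as reported and under each of the 12 alternatives (rows), red where higher on fibronectin and blue where lower. All cells are blue with scaling to the hybridisation spikes, where the values run from -1.17 for Nars to -0.10, and Eprs and Hars were not measured with the floor at the level of the negative controls.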

How the data were processed

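The authors deposited linear intensities, a MAS5 signal for each probe set, per the submitters' processing notes, which name no version or scaling target. Per the labels' protocols, RNeasy was used on total RNA. Other deposited files hold text settings of the instruments and were only compared.

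The arrays were brought to a common 2% trimmed mean over 12422 probe sets other than controls, with factors of 1.00 on fibronectin and 0.999 in suspension. Signals below the floor of 490 were raised to it before log2 was taken. Each log2 ratio is fibronectin minus suspension, and one with an array below the floor is a bound. Of 12488 probe sets, 10855 carried a single gene symbol, and a gene was read from its probe set with the highest mean log2 signal. Negative controls were the 34 antisense, yeast and unspiked bacterial probe sets.

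The genes named are all 10 members with every probe set, up to 3 genes with the largest absolute ratio from each of 7 related lists, and Atf4, Asns, Ddit3 and Mthfd2; others were added after their values were seen. The members and lists were chosen with earlier results of these data known. The arithmetic was tested on simulated data, with Python 3.11.15, pandas 2.3.3 and statsmodels 0.14.6. Alternatives changed the scaling, the floor and the probe set.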

Additional observations from a re-analysis of the deposited data

How the results depend on the processing

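Of 118 ratios of member genes under the 12 alternatives, all 118 moved by less than 0.59 on the log2 scale. That limit, the SD of 1 ratio from probe sets of 1 gene, exceeded the absolute ratio of every member but Nars. Lower floors could not alter signals above them, and the choice of probe set could not alter genes with 1 probe set. The count of 118 is therefore no measure of stability. With scaling to the hybridisation spikes, 6 genes changed sign. That scaling gave 4 members at least 1.5-fold lower, 1 at least 2-fold lower and a median log2 ratio of -0.24. Median scaling gave 0 members at least 1.5-fold lower and a median of 0.44. Both move all genes together, by construction. The number of members at least 1.5-fold or 2-fold higher was 0 under all 12 alternatives. Without Nars, an alternative chosen after seeing the data, the median was 0.27. Restricting the comparison to all genes above the negative control level, also chosen after seeing the data, put 3.84% of genes past 2-fold upward and 1.02% past it downward. No paired analysis was possible because each group has 1 array, and for the same reason no array could be left out. Signal over background limits Eprs and Hars, which were not measured with the floor at the level of the negative controls.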
